A study of Homo sapiens with 6 samples.

Results

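The genes described are the integrin subunits and laminin chains, 34 in all, of which 24 encode integrin subunits and 10 encode laminin chains. They were taken by gene symbol from a list made for this work, with every probe set annotated to a symbol on the list and with alpha and beta partners read together. The table named 11963 genes, and 32 of the 34 members had at least 1 probe set annotated to them alone, 66 probe sets together. ITGB6 was reached only through probe sets that carry several gene symbols and was not named, and LAMA3 was matched by no probe set used here. The arrays measured total RNA of 3 populations of MDA-MB-231, a triple-negative human breast carcinoma line of mesenchymal character, much used in metastasis research. The parental line was set beside S1a and S1b, labelled as isolated seeder cell populations 1 and 2. All populations were grown subconfluent in DMEM with 10% FBS, with no treatment or engineered allele named in the labels, and 2 arrays were made of each. No isolate of cells other than seeders was measured, so an effect of seeding and an effect of isolation cannot be told apart. The labels do not say whether an isolate is a clone.

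Integrins are cell-surface receptors made of 1 alpha and 1 beta subunit, and the pairing sets which matrix protein or which receptor on another cell is bound. Laminins are trimers of an alpha, a beta and a gamma chain that build the basement membrane, the sheet on which epithelial cells rest, and several integrins bind them. Breast epithelium is anchored to its basement membrane by laminin-binding integrins, and carcinoma cells use other integrins to hold on to fibronectin, vitronectin and collagen as they move.

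Signals are array intensities in MAS5 units, with no read depth, so the number of arrays limits the precision. Median signals lay between 86.6 and 106 on the 6 arrays. Each of the 6 marker genes fixed for this line, VIM, CD44, EGFR, AXL, MSN and CAV1, was above the filter for dim probe sets (44 units, explained with the first counts) in every population. CDH1 and PGR averaged 9.84 and 4.55 units, whereas EPCAM averaged 415, ERBB2 188 and ESR1 44.2 units, so these last markers, listed as low in the line, passed the filter, ESR1 narrowly and with 24.8 units in S1a. Of 15 leukocyte markers, 12 had a named probe set, and their summed signal was 422 to 465 units on parental arrays, 236 to 272 on S1a arrays and 175 to 192 on S1b arrays. Endothelial markers, 5 in all, summed to 86.8 to 142 units in parental, 163 to 189 in S1a and 132.7 to 137 in S1b, and the part of such cells in any member's change was not tested. The labels speak of biological replicates but name no separate cultures, and p-values therefore measure the spread between these arrays.

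The members moved in both directions. ITGB2, the beta subunit of the leukocyte integrins, was higher in both isolates by more than 12 times in signal, and the laminin chain LAMB3 was higher by 1.48 times. The vitronectin receptor subunits ITGAV and ITGB5, the laminin receptor subunit ITGA6 and the laminin chain LAMB1 were lower in both isolates, by 1.70 to 2.17 times in mean signal. ITGB4 was above the parental level in S1a and below it in S1b. A member was tested where its brightest probe set averaged at least 44 units over the 6 arrays, the 40th percentile of all probe sets; 17 members were, 12 integrin subunits and 5 laminin chains. ITGB3 passed with only the S1b mean above 44 units. Changes are differences of log2(signal + 3.942), and a change was called at a limma adjusted p under 0.05.

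Against parental, 8 of the 17 tested members were called for the mean of both isolates, 3 higher and 5 lower, or 47.1%. Of all 7791 genes tested, 46.2% were called, 22.7% higher and 23.5% lower, so the members' share lay near the background. The median change of the members was -0.06, beside -0.03 over all genes. In S1a alone, 3 members were higher and 5 lower, where 39.2% of all genes were called, 19.4% higher and 19.9% lower. In S1b alone, 2 were higher and 6 lower, beside 41.6% of all genes, 20.7% higher and 20.9% lower. These comparisons share the parental arrays. Centring each array on its median shifted the median change of all genes by 0.19. It gave 7 higher and 4 lower members in S1a, 3 and 5 in S1b and 4 and 4 in both isolates. Of all genes, 41.1% were then called in S1a, 44.1% in S1b and 48.6% in both isolates. Quantile or loess scaling gave 5 higher and 5 lower members in S1a, beside 38.7% and 38.4% of all genes. Between S1b and S1a, 1 of the 17 was called, lower in S1b, beside 1.89% of all genes, 0.462% higher and 1.42% lower. Of the 8 members called in both isolates, ITGB2, ITGB5 and LAMB1 changed at least 2-fold on the log2 scale. The share of all genes that changed as much was not counted. By size of change ITGB2 ranked 16 from the top of the 7791 genes, and LAMB1 ranked 392 and ITGB5 408 from the bottom.

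**Figure D1:**
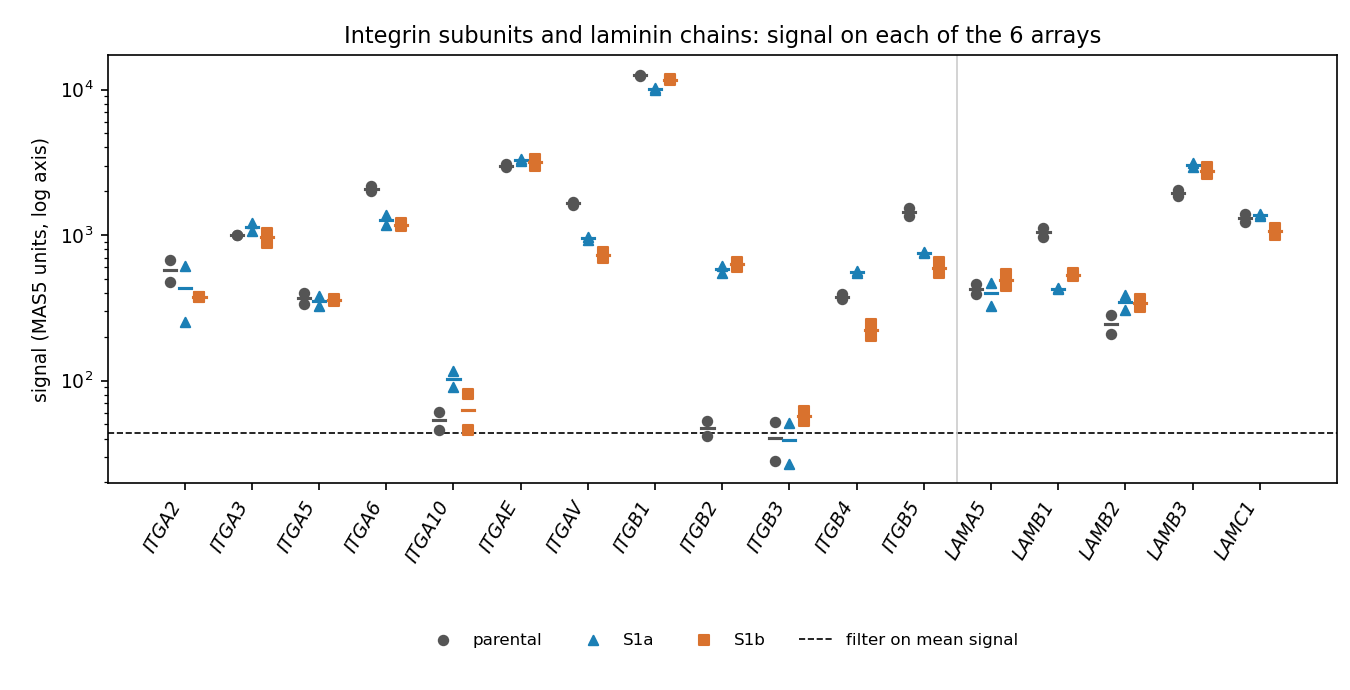
Signal of the 17 tested members on each array, in MAS5 units on a log axis; circles are parental, triangles S1a and squares S1b arrays, short lines are means of 2 arrays, and the dashed line is the filter at 44 units. The ITGB2 arrays of both isolates lie at 547 units or more, while its parental arrays lie at 52.7 and 41.8 units; levels of different genes come from different probes and are not comparable.

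**Figure D2:**
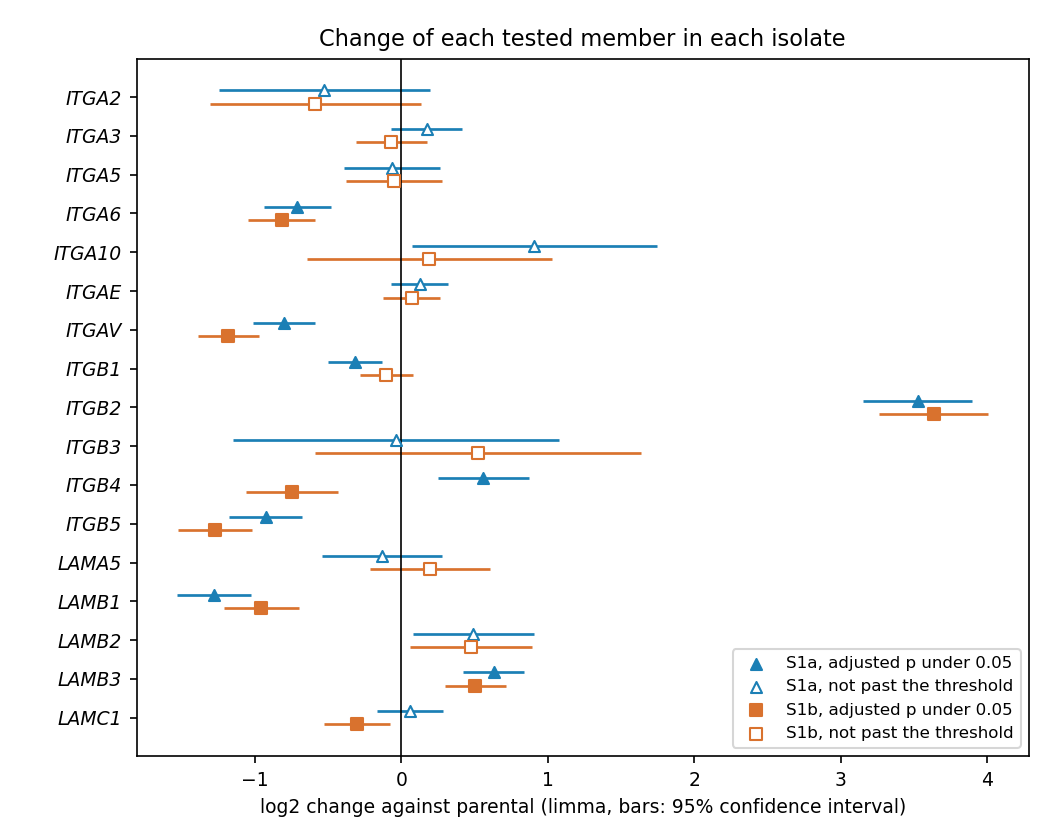
Log2 change of each tested member against parental in S1a (triangles) and S1b (squares), with 95% confidence intervals from the limma fit; filled symbols passed an adjusted p of 0.05. ITGAV, ITGB5, ITGA6 and LAMB1 lie left of 0 in both isolates, ITGB2 and LAMB3 lie right of 0 in both, and ITGB4 lies right of 0 in S1a and left of 0 in S1b.

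Promoter sequences from RefSeq (GRCh38.p14), 250 bases before to 50 bases after a start site, were at hand for 7 of the 8 members called in both isolates. Shown are those of the 3 members that fell most among these 7 and of LAMB3, the brighter of the laminin chains that rose, since members that move together invite a look at their starts. Capitals mark the GC box GGGCGG, the AP-1 site TGANTCA and the TATA box TATAAA, searched on both strands. The ITGAV promoter lies at chr2:186589806-186590105 on the plus strand, ITGB5 at chr3:124901369-124901668, LAMB1 at chr7:108003112-108003411 and LAMB3 at chr1:209652376-209652675, the last 3 on the minus strand. These are the first listed starts. LAMB3 has 3 listed starts, and the last one, at chr1:209651325-209651624, is printed too because it holds an AP-1 site. ITGAV and ITGB5 have further listed starts that are not printed.
ITGAV: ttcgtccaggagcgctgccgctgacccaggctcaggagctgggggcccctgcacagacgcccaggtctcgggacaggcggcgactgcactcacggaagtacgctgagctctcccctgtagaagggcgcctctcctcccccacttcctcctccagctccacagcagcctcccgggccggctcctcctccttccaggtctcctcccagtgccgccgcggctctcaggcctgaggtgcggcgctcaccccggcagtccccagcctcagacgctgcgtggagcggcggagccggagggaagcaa
ITGB5: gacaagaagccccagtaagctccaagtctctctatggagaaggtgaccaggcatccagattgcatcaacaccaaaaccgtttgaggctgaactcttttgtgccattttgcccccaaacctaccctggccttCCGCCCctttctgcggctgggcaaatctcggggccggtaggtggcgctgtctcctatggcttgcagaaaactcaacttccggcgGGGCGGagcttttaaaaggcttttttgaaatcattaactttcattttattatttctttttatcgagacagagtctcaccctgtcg
LAMB1: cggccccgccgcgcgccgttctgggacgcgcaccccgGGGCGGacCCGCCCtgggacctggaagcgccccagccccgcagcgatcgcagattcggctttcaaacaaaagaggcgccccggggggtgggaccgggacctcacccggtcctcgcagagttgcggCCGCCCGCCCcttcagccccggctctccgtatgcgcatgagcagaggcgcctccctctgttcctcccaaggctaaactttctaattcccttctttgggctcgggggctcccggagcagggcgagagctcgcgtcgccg
LAMB3 first start: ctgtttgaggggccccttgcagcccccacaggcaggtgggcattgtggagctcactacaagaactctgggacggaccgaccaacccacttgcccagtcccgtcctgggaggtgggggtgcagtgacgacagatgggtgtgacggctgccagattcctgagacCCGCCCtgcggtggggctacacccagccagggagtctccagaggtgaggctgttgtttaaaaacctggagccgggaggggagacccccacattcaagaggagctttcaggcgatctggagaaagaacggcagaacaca
LAMB3 last start: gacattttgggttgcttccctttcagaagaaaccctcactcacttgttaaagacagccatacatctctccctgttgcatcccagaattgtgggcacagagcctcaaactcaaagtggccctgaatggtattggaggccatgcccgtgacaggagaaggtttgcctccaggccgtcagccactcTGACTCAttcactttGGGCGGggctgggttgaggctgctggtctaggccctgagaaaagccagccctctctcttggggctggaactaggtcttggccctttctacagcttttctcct

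In these windows ITGAV held none of the 3 motifs, ITGB5 held 2 GC boxes, LAMB1 held 4, of which a pair overlaps, and LAMB3 held 1 at either start, with 1 AP-1 site at the last. The GC content of the printed windows was 70.7% for ITGAV, 71.0% for LAMB1 and 49.7% for ITGB5. It depends on the start: the further starts of ITGB5 had 59.7% and 75.7%, with 2 and 3 GC boxes. The further start of ITGAV had 41.3% and no GC box. Of the 3 fallen members shown, ITGB5 and LAMB1 thus shared the GC box, which ITGAV lacked; the first listed promoters of ITGA6 and ITGB1, the others called lower, held it too, in 1 and 3 copies. With the first listed start of each gene, a GC box stood in 14 of 24 member promoters and in 44.6% of 27305 promoters. An AP-1 site stood in 2 of 24 and in 7.76% of all, and a TATA box in 1 of 24, that of ITGA6, and in 12.0% of all. A match is a run of letters and not a shown binding site, and the arrays do not tell which start a population used. Whether any motif bears on a change in signal was not tested.

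ITGB2 pairs with ITGAL, ITGAM or ITGAX in the integrins of white blood cells, which bind ICAM receptors and complement fragments. Its probe set 202803_s_at read 52.7 and 41.8 units in parental, 547 and 617 in S1a and 656 and 602 in S1b. Both parental arrays sat near the filter, and the 4 isolate arrays were far above them and overlapped each other. The mean signal was 47.2 ± 7.72 (SD, n = 2) in parental, 582 ± 49.1 in S1a and 629 ± 38.1 in S1b. The log2 change was 3.52 ± 0.17 (SE, adjusted p = 7.1e-07) in S1a and 3.63 ± 0.17 (adjusted p = 4.31e-07) in S1b. Averaged over both isolates it was 3.58 ± 0.14 (adjusted p = 1.46e-07), rank 16 from the top of 7791 genes, and S1b minus S1a was 0.11 (95% confidence interval -0.26 to 0.48, adjusted p = 0.818).

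None of the alpha partners of ITGB2 among the members had a probe set that averaged above the filter. ITGAL, the alpha subunit of the lymphocyte integrin that binds ICAM1, read 43.4 and 37.8 units in parental, 42.9 and 52.4 in S1a and 34.03 and 33.6 in S1b. ITGAM, found on myeloid cells, read 52.3 and 6.63 units in parental, 18.1 and 35.7 in S1a and 20.5 and 40.98 in S1b on its brighter probe set. ITGAX, a marker of dendritic cells, read between 3.11 and 8.85 units on all 6 arrays. Levels of different probe sets are not comparable, and a probe set below the filter does not show that a gene is silent. Of the 12 leukocyte markers, 3 averaged above the filter in parental, 2 in S1a and none in S1b, and PTPRC, the pan-leukocyte antigen CD45, read between 13.8 and 33.98 units on the 6 arrays, with no marker at 0. Most of the 12 averaged lower in S1a and in S1b than in parental, among them CD14, a monocyte antigen, at 86.9 units in parental, 56.9 in S1a and 26.2 in S1b. The exceptions were CORO1A, an actin regulator of blood cells, at 37.1 units in parental, 64.8 in S1a and 38.7 in S1b, and in S1a the marker CD3E. CD3E averaged 31.5 units in parental, 40.2 in S1a and 15.2 in S1b. The part of such cells in the ITGB2 change was not tested. In bulk RNA a change in the number of cells that express a gene and a change in RNA per cell cannot be told apart.

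Among the ligands of these integrins, ICAM1, the counter-receptor on endothelial and inflamed cells, read 192 and 154 units in parental, 103 and 77.2 in S1a and 3.26 and 23.2 in S1b. Both S1b arrays lay below the filter, and ICAM1 was at least 3.94-fold lower in S1b than in parental (adjusted p = 0.000645), where a lower bound sets the brighter mean against 44 units. ICAM2 fell over both isolates, by 0.58 ± 0.15 (adjusted p = 0.0102), a call that ended without parental replicate 1 and under median centring. In S1a alone neither was called by limma, at -0.92 for ICAM1 (adjusted p = 0.224) and -0.35 for ICAM2 (adjusted p = 0.143). ICAM3 changed by 0.16 over both isolates (adjusted p = 0.346).

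ITGAV combines with several beta subunits into receptors for vitronectin, fibronectin and latent TGF-beta. It read 1698 and 1612 units in parental, 968 and 932 in S1a and 696 and 763 in S1b. The 3 populations did not overlap, with S1b lowest. ITGAV fell by 0.80 ± 0.095 in S1a (adjusted p = 0.000173), by 1.18 ± 0.095 in S1b (adjusted p = 1.2e-05) and by 0.99 ± 0.082 over both (adjusted p = 1.11e-05). The difference S1b minus S1a was -0.38 (95% confidence interval -0.59 to -0.17, adjusted p = 0.0816) and missed the threshold.

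ITGB5 joins ITGAV in a vitronectin receptor. Its brightest probe set, 201125_s_at, read 1362 and 1532 units in parental, 765 and 751 in S1a and 649 and 549 in S1b. Again all parental arrays lay above all isolate arrays, and ITGB5 fell by 0.93 ± 0.11 in S1a (adjusted p = 0.000196) and by 1.27 ± 0.11 in S1b (adjusted p = 2.17e-05). Its other probe sets were dimmer and less clear. On 201124_at, with 124 and 121 units in parental against 81.4 and 89.2 in S1a and 56.4 and 81.9 in S1b, the change over both isolates was -0.66 ± 0.25 (adjusted p = 0.0577), and on 214020_x_at it was -0.28 ± 0.40 (adjusted p = 0.594). Of single probe sets, only 201125_s_at was called in S1a and over both isolates, and its suffix marks probes that can match several transcripts. With the mean of the ITGB5 probe sets, which includes this one, both calls were kept. That mean also takes in 214021_x_at, below the filter, which read 85.0 and 44.3 units in parental, 27.0 and 16.7 in S1a and 28.9 and 23.9 in S1b.

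Of the other possible partners of ITGAV, ITGB3, the beta subunit of the osteoclast and platelet integrins, read between 26.9 and 62.1 units and changed by 0.24 over both isolates (95% confidence interval -0.72 to 1.21, adjusted p = 0.671). The other 6 probe sets of ITGB3 stayed below the filter. On 204627_s_at parental read 44.3 and 44.6 units, S1a 16.5 and 2.91 and S1b 4.44 and 15.2, with parental above both isolates. With the mean of the probe sets the ITGB3 change turned to -0.54 (adjusted p = 0.329), so the probe sets disagree on its direction. ITGB8, which presents latent TGF-beta with ITGAV, read at most 24.3 units on any array.

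ITGB1 is the common beta subunit of most matrix receptors and was read at 12394 and 12652 units in parental, 9928 and 10176 in S1a and 11742 and 11616 in S1b. The S1a arrays were the lowest and the populations did not overlap. ITGB1 fell by 0.32 ± 0.083 in S1a (adjusted p = 0.0127), and S1b changed by -0.10 (adjusted p = 0.359). The S1a call ended in 4 of 18 alternatives: without S1a replicate 1 or 2, under median centring (-0.13) and with the mean of probe sets (-0.00096). Over both isolates it fell by 0.21 ± 0.071 (adjusted p = 0.0359), a call that ended in 12 of 18 alternatives, leaving a change of -0.02 under median centring. The mean of probe sets takes in the other ITGB1 probe sets, which averaged 4.74 to 25.5 units, all below the filter. The direct difference S1b minus S1a was 0.22 (95% confidence interval 0.03 to 0.40, adjusted p = 0.245). ITGA5, which makes the fibronectin receptor with ITGB1, read 401 and 337 units in parental, 325 and 381 in S1a and 362 and 350 in S1b, with overlapping populations and a change of -0.06 (95% confidence interval -0.34 to 0.23).

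ITGA6 forms laminin receptors with ITGB1 and with ITGB4, the latter in hemidesmosomes. On probe set 201656_at it read 2165 and 2004 units in parental, 1170 and 1383 in S1a and 1217 and 1146 in S1b, and on 215177_s_at it read 1314 and 1252, then 773 and 793, then 675 and 761. Both probe sets placed the parental arrays above every isolate array. ITGA6 fell by 0.71 ± 0.10 in S1a (adjusted p = 0.000553) and by 0.82 ± 0.10 in S1b (adjusted p = 0.000194) on the brighter probe set, and by 0.77 ± 0.089 over both isolates on the other (adjusted p = 8.16e-05).

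ITGB4 has a long cytoplasmic tail that ties the receptor to keratin filaments. Its brightest probe set, 204990_s_at, read 361 and 393 units in parental, 570 and 546 in S1a and 244 and 204 in S1b. No populations overlapped, and parental lay between the isolates. ITGB4 rose by 0.56 ± 0.14 in S1a (adjusted p = 0.0104) and fell by 0.75 ± 0.14 in S1b (adjusted p = 0.00208). S1b minus S1a was -1.31 ± 0.14 (95% confidence interval -1.62 to -0.995, adjusted p = 0.00166), a ratio of mean signals of 2.49, and this was the only tested member called between the isolates.

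The second ITGB4 probe set, 204989_s_at, read 150 and 128 units in parental, 169 and 195 in S1a and 116 and 64.9 in S1b. The order of the populations was the same, but S1b minus S1a was -1.03 ± 0.28 (adjusted p = 0.121), where 1.31% of 11860 probe sets were called. On the third, 211905_s_at, S1a read 67.1 and 66.0 units within the parental range of 65.7 to 88.8, and S1b minus S1a was -0.40 ± 0.35 (adjusted p = 0.677). Against parental, 204989_s_at changed by 0.38 in S1a (adjusted p = 0.324) and by -0.64 in S1b (adjusted p = 0.101), and 211905_s_at by -0.19 (adjusted p = 0.708) and -0.59 (adjusted p = 0.213). All 3 ITGB4 calls therefore hold on its brightest probe set alone. When its probe sets were averaged they ended, at 0.29 in S1a (adjusted p = 0.467), -0.57 in S1b (adjusted p = 0.147) and -0.86 for S1b minus S1a (adjusted p = 0.226). That average takes in 214292_at, which lay below the filter at a mean of 11.1 units. Leaving out S1a replicate 1 or 2 ended the S1a call.

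**Figure D3:**
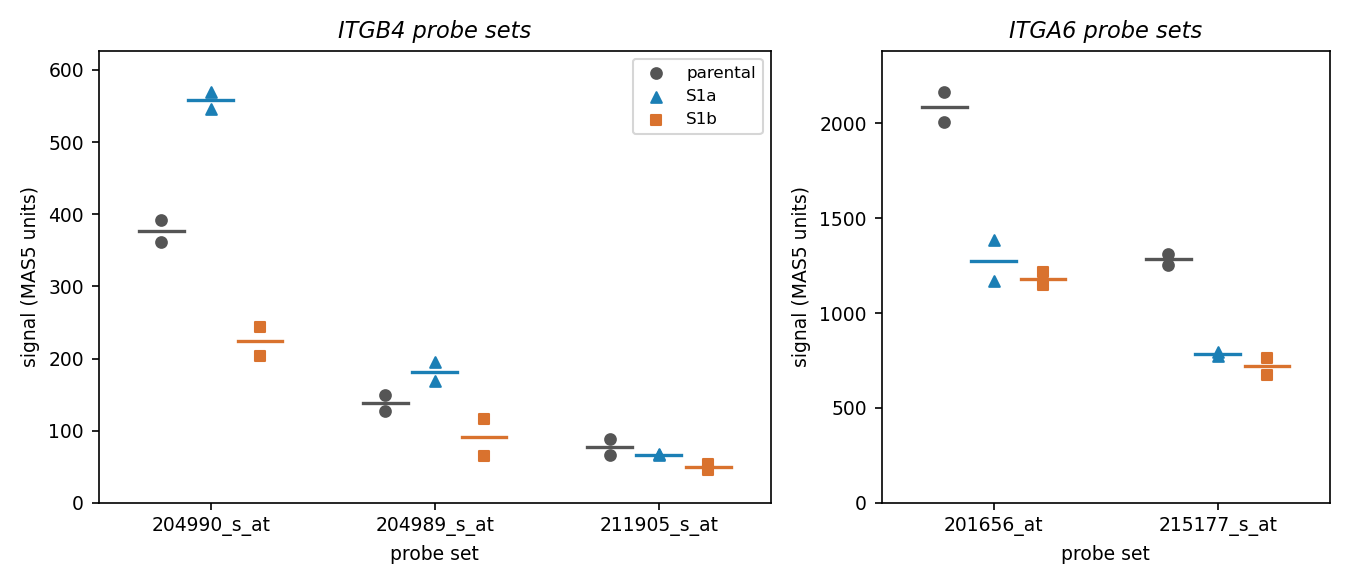
Signal (MAS5 units, linear axis from 0) on each array for every ITGB4 and ITGA6 probe set above the filter; circles are parental, triangles S1a and squares S1b, and lines are means of 2 arrays. Both ITGA6 probe sets have parental arrays on top, whereas ITGB4 204990_s_at has S1a at 546 and 570 units on top and S1b at 204 and 244 at the bottom.

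ITGA3, the alpha subunit of a further laminin receptor with ITGB1, read 1006 and 1007 units in parental, 1066 and 1210 in S1a and 1039 and 887 in S1b. It changed by 0.05 over both isolates (95% confidence interval -0.16 to 0.26, adjusted p = 0.672), so a change in signal as large as that of ITGA6 lies outside its interval. In S1a it changed by 0.17 (adjusted p = 0.235), past the threshold under median centring. ITGA7, a muscle laminin receptor subunit, stayed below the filter.

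Of the collagen receptors, ITGA2, the alpha subunit of a receptor on epithelium and platelets, read 673 and 478 units in parental, 611 and 253 in S1a and 378 and 375 in S1b. The S1a arrays lay far apart and overlapped the parental arrays. The change over both isolates was -0.56 ± 0.28 (95% confidence interval -1.18 to 0.07, adjusted p = 0.13), and without S1a replicate 1 it was -0.87 (adjusted p = 0.00174). ITGA10, known from cartilage, read 61.3 and 45.6 units in parental, 116 and 90.7 in S1a and 80.7 and 45.9 in S1b. Both S1a arrays lay above parental, with a change of 0.91 ± 0.37 (adjusted p = 0.0805) that passed the threshold under median, quantile and loess scaling. ITGA1 stayed below the filter.

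ITGAE, which binds E-cadherin when paired with ITGB7 on intraepithelial lymphocytes, read 2932 and 3056 units in parental, 3219 and 3314 in S1a and 3343 and 2962 in S1b. Its change over both isolates was 0.10 (95% confidence interval -0.07 to 0.27, adjusted p = 0.314). Its only beta partner, ITGB7, stayed below the filter, with at most 15.9 units on any array.

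Read as pairs, the members form 22 of the known alpha and beta combinations, and both partners were tested in 9. In 3 of these, ITGA6 with ITGB1, ITGAV with ITGB1 and ITGAV with ITGB5, both subunits fell over both isolates, and in 0 of the 9 both rose. Of all single genes 23.5% were lower, which is not a share of pairs. Pairs of other genes were not counted, so the 3 of 9 has no background. The pairs with ITGB1 rest on its call over both isolates, which ended in 12 of 18 alternatives, and in S1b alone ITGB1 was not called. In 12 pairs only 1 partner was tested, among them all 3 pairs of ITGB2. The pairs are not independent, since ITGB1 stands in 11 of the 22 and ITGAV in 5.

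Among the laminin chains, LAMB1, the beta chain of the laminins of early and many adult basement membranes, fell the most. On 201505_at it read 965 and 1123 units in parental, 425 and 430 in S1a and 520 and 551 in S1b, and on 211651_s_at it read 597 and 800, then 278 and 288, then 346 and 314. On both probe sets S1a was lowest and parental highest, with no overlap between populations. LAMB1 fell by 1.28 ± 0.11 in S1a (adjusted p = 3.07e-05) and by 0.95 ± 0.11 in S1b (adjusted p = 0.000138), and the other probe set fell by 1.17 ± 0.14 over both isolates (adjusted p = 8.36e-05). S1b minus S1a was 0.32 (95% confidence interval 0.07 to 0.58, adjusted p = 0.214). Its printed promoter holds 4 GC boxes, and a link between these and the change was not tested. Of 4 fibroblast markers 1 averaged above the filter in parental and none in the isolates, and their summed signal was 116 to 182 units in parental, 50.6 to 53.8 in S1a and 39.6 to 62.8 in S1b; the part of such cells in the fall of LAMB1 was not tested.

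LAMB3, the beta chain of the epithelial laminin of anchoring filaments, read 1856 and 2046 units in parental, 2919 and 3120 in S1a and 2915 and 2630 in S1b. Every isolate array lay above both parental arrays. LAMB3 rose by 0.63 ± 0.093 in S1a (adjusted p = 0.000583) and by 0.51 ± 0.093 in S1b (adjusted p = 0.0018). LAMB2, the beta chain of neuromuscular and kidney basement membranes, read 284 and 208 units in parental, 307 and 385 in S1a and 361 and 320 in S1b. It rose by 0.48 ± 0.16 over both isolates (adjusted p = 0.0317), a call that ended in 6 of 18 alternatives, among them without parental replicate 2, S1a replicate 2 or either S1b array. In S1a alone it changed by 0.49 (adjusted p = 0.0592) and in S1b by 0.48 (adjusted p = 0.063).

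LAMC1, the gamma chain of most laminins, read 1229 and 1400 units in parental, 1352 and 1386 in S1a and 1125 and 1008 in S1b on 200771_at. Only S1b lay apart, and LAMC1 fell there by 0.30 ± 0.10 (adjusted p = 0.037), a call that ended in 8 of 19 alternatives. Its second probe set, 200770_s_at, read 649 and 647 units, then 542 and 528, then 485 and 492, and placed both isolates below parental. It fell by 0.34 ± 0.094 over both isolates (adjusted p = 0.0142, where 42.6% of all probe sets were called), whereas 200771_at changed by -0.12 (adjusted p = 0.292), so the LAMC1 probe sets disagree on S1a. LAMA5, an alpha chain of adult epithelial basement membranes, read 395 and 464 units in parental, 471 and 324 in S1a and 541 and 448 in S1b and changed by 0.03 (95% confidence interval -0.32 to 0.39). It was the only laminin alpha chain tested.

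The remaining 15 members, 11 integrin subunits and 4 laminin chains, had 30 probe sets that all stayed below the filter, with group means from 0.764 to 50.6 units. The integrins were ITGA1, ITGA2B, ITGA4, ITGA7, ITGA8, ITGA9, ITGAL, ITGAM, ITGAX, ITGB7 and ITGB8, and the laminins LAMA1, LAMA2, LAMA4 and LAMC3. In 9 of the 15 no array reached the filter, and the highest single signal was 59.9 units, for LAMC3. ITGA2B, the platelet alpha subunit, averaged 16.2 units in parental, 26.3 in S1a and 50.4 in S1b on 206493_at. Only S1b stood above the filter there. Its other probe sets averaged 13.7, 16.2 and 5.64 units in parental, 18.2, 2.53 and 21.0 in S1a and 8.34, 16.1 and 5.28 in S1b. The 4 platelet markers summed to 109 to 116 units in parental, 73.3 to 135 in S1a and 90.0 to 105 in S1b. With no filter, limma called 0 of the 15 in any comparison. Of all 11963 genes it then called 22.7% in S1a, 24.7% in S1b, 28% over both isolates and 0.527% between the isolates. An unadjusted p under 0.05 was reached by 1 of the 15 in S1a, 2 in S1b, 1 over both isolates and 0 between the isolates. The share of all genes with such an unadjusted p was not counted there.

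Genes that work with the members were read from 5 further lists. The adaptors of focal adhesions, which link integrin tails to actin, had 23 tested genes of 32, with 6 higher and 5 lower over both isolates (47.8%, median 0.19), beside 46.2% of all genes. TGFB1I1, a paxillin relative, rose by 0.79 ± 0.12, and FERMT2, a kindlin that activates integrins, by 0.55 ± 0.087, while TNS3, a tensin, fell by 0.77 ± 0.098. CRKL, an adaptor of paxillin signalling, rose by 0.50 ± 0.083 and by only 0.01 with the mean of its probe sets, which ended the call.

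Tetraspanins and other membrane partners had 15 tested genes of 18, with 3 higher and 9 lower (80%, median -0.30). Under median centring 3 were higher and 3 lower, beside 48.6% of all genes called. CD151, the tetraspanin bound to ITGA3 and ITGA6 integrins, fell by 0.74 ± 0.083 (adjusted p = 7.16e-05) from 1242 to 742 units, and TSPAN4 fell by 0.51 ± 0.09. SLC3A2, a heavy chain of amino acid transporters that binds integrin beta tails, rose by 0.61 ± 0.076. PLAUR, the urokinase receptor, rose by 1.58 ± 0.07 from 1151 to 3455 units, a call that ended on the probe set free of shared probes (0.14, adjusted p = 0.383).

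Matrix ligands had 18 tested genes of 28, with 4 higher and 6 lower (55.6%, median -0.06). FN1, fibronectin, fell by 0.49 ± 0.079 (adjusted p = 0.000712), TGFBI, a matrix protein bound by ITGAV integrins, by 1.03 ± 0.089 and THBS1, thrombospondin, by 0.84 ± 0.10. COL6A1, a collagen VI chain, rose by 1.14 ± 0.09, a call that ended when its probe sets were averaged and when those with shared-probe suffixes were left out. Laminin partners and other laminin receptors had 11 tested genes of 18, with 4 higher and 4 lower (72.7%, median -0.21). LGALS3, a galectin that binds laminin, fell by 1.27 ± 0.071, and PLEC, which ties ITGB4 to keratin, rose by 0.83 ± 0.093, with a loss of the call without shared-probe suffixes (0.37, adjusted p = 0.0833). The syndecans SDC4 and SDC1, which bind matrix through heparan sulfate, rose by 0.47 ± 0.076 and 0.63 ± 0.10. Cell-surface counter-receptors had only 4 tested genes of 12, of which 2, ICAM1 and ICAM2, were lower (50%, median -0.71). In S1a alone 0 of the 4 were called, beside 39.2% of all genes, and in S1b alone the same 2 were lower, beside 41.6%.

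**Figure D4:**
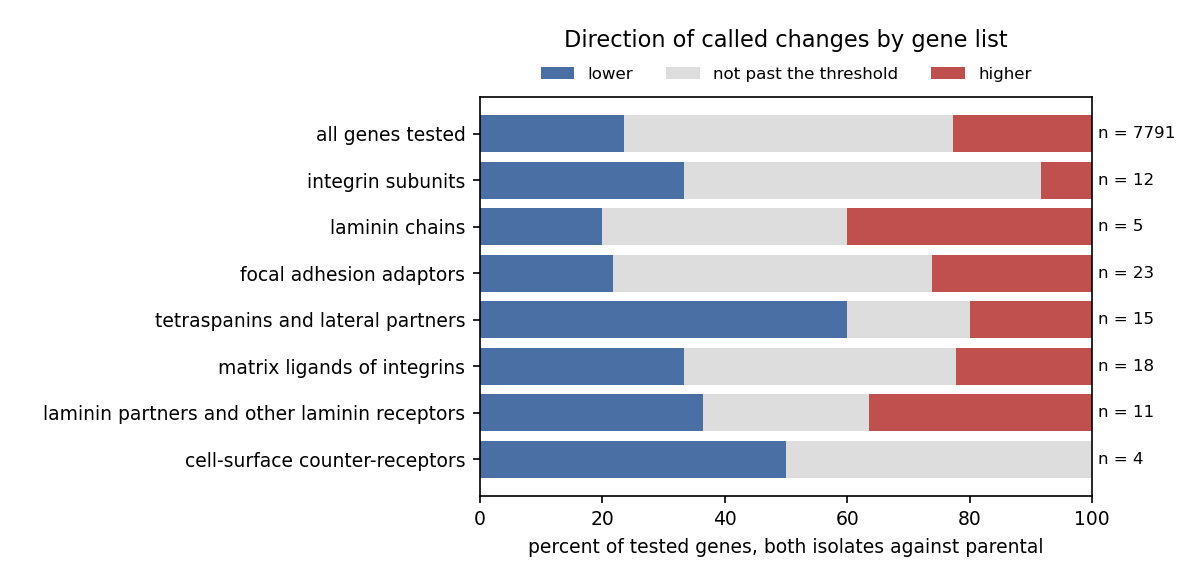
Percent of tested genes that were lower (left), not past the threshold (middle) and higher (right) over both isolates against parental, for all 7791 genes, the members and 5 lists of working partners, with the number tested at the right. Among integrin subunits 4 of 12 were lower and 1 higher, and among tetraspanins and lateral partners 9 of 15 were lower and 3 higher.

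Between S1b and S1a, 6 of the 17 members had an unadjusted p under 0.05, ITGB4, ITGAV, LAMC1, ITGB5, LAMB1 and ITGB1, of which ITGB4 alone passed after adjustment by limma. Of all 7791 genes, 1162 had such an unadjusted p. The members' median difference was -0.06, beside 0.01 over all genes. Of the partner lists, limma called 0 of 23 adaptors, 2 with an unadjusted p under 0.05, and 0 of 11 laminin partners, 5 with an unadjusted p under 0.05. Chosen after their values were seen, since so few were called, BSG, CD82 and SLC3A2 among the membrane partners were lower in S1b by 0.48, 0.83 and 0.42 on the log2 scale, and COL6A3 among the ligands was higher by 1.12 ± 0.19 (adjusted p = 0.0196). These calls ended in 6 of 18 alternatives for BSG, 6 of 18 for CD82, 11 of 18 for SLC3A2 and 5 of 19 for COL6A3, in each case without S1a replicate 1 or either S1b array and, except for CD82, without S1a replicate 2. ICAM1 was at least 2.04-fold lower in S1b than in S1a (adjusted p = 0.0459), a call that ended in 9 of 17 alternatives.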

How the data were processed

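Biotin-labelled total RNA was hybridised to 6 Affymetrix arrays, 2 for each of parental, S1a and S1b. The deposited values are intensities, 1 per probe set and array; per the submitters' processing notes the authors used MAS5, whose version is not given in the sources used here. Each array has a mean of 500.2 with the outer 2% trimmed, and this scaling was kept. Of 22277 probe sets, 62 controls were left out. An annotation table gave 19064 of the rest 1 symbol, 1043 several and 2108 none, and gene identifiers updated 19052 through RefSeq (GRCh38.p14). Probe sets with several symbols or none were neither tested nor named.

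For a gene with several probe sets, the brightest on average stood for it. Values were log2(signal + 3.942), the pseudocount being the 10th percentile of all signals, so changes of dim genes are understated. Probe sets with a mean below the 40th percentile (44 units) were left out. A model of 3 group means was fitted to 7791 genes with limma 3.58.1 in R 4.3.3 (7 prior and 3 residual degrees of freedom, variance following the mean signal), with Benjamini-Hochberg adjustment at 0.05 within each contrast. The same model on 11860 probe sets gave the values of second probe sets. The fit was tested on simulated data.

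The members and lists were chosen with earlier results of these data known. By rule, every member was accounted for and each tested one described; of each list, up to 4 called genes with the smallest p-values over both isolates were named, plus ICAM1, ICAM2, ICAM3, FN1, VTN and CD151 where tested. VTN was not tested. Alternatives covered the pseudocount, filter, scaling, probe set choice, variance model, replicate numbers and each array left out. The mean of a gene's probe sets took in those below the filter. Same-numbered arrays did not deviate together between populations (correlations -0.0046 to -0.067).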

Additional observations from a re-analysis of the deposited data

Results flagged for a closer look

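ITGB4 was the only member whose change differed between the isolates by the test of the difference itself: S1b minus S1a was -1.31 ± 0.14 on the log2 scale (limma adjusted p = 0.00166), with both S1a arrays above and both S1b arrays below the parental arrays on its brightest probe set. The difference was -1.03 (adjusted p = 0.121) and -0.40 (adjusted p = 0.677) on its other probe sets. With 2 arrays per population, none was tested for standing apart from its group.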

How the results depend on the processing

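Of 25 called member results, 16 kept their call under all of the up to 19 alternatives that gave them a value, 9 lost it under at least 1, and 0 reversed. The comparisons of ITGB2, ITGAV, ITGA6, LAMB1 and LAMB3 with parental kept their calls throughout, as did ITGB5 in S1b. ITGB2 has no probe set free of the suffix for shared probes, so that alternative gives it no value. ITGB2, ITGAV and LAMB3 have 1 probe set each, so the alternatives on the choice of probe set could not alter their changes. Where each probe set was fitted on its own, a gene was scored on its probe set with the smallest p. Without such probe sets, 10 members were tested and 4 were called in S1a, 4 over both isolates and 0 between S1b and S1a (limma, 3 with an unadjusted p under 0.05), partly because fewer members had a value. Of the 4781 genes tested in that setting, 36.2% were called in S1a, 43.1% over both isolates and 1.21% between S1b and S1a. There the ITGB5 change was -0.50 (adjusted p = 0.196) in S1a and -0.66 (adjusted p = 0.0549) over both isolates. For S1b against S1a, limma called 0 members with the mean of probe sets (4 with an unadjusted p under 0.05) and 0 without the variance trend (5 with an unadjusted p under 0.05). With array weights it called 3, ITGB4, ITGAV and LAMC1. Of all genes, these settings called 0.77%, 0.0513% and 4.11%, and the cause was not tested. Leaving out an array leaves 1 array in its population, so counts of called members from those fits are not given. With the replicate block, 8 members were called in S1a, 7 in S1b, 7 over both isolates and 1 between the isolates. Of all genes, 35.4%, 38.3%, 43% and 0.821% were called in that order. The arrays share only a number, and the block ended the ITGB1 call over both isolates and the LAMC1 call in S1b. Among the partner lists, the tetraspanin count of 12 fell to 6 under median centring and without shared probes, the ligand count of 10 to 6 under the 60th percentile filter and 3 without shared probes, and the adaptor count of 11 to 7 without shared probes or without the variance trend. Of all genes, 48.6% were called over both isolates under median centring and 39.2% without the variance trend. Without shared probes 43.1% of 4781 genes were called, and 54.9% of 5616 under the 60th percentile filter. In these last 2 settings fewer genes were tested, so the list counts may also fall because fewer list genes had a value.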
